A study of Drosophila melanogaster with 2 samples.

Results

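The epidermal growth factor receptor (EGFR) pathway of Drosophila melanogaster is described here through 10 of its genes: the ligand genes spi and vn, the protease gene rho, the receptor gene Egfr, the adaptor gene drk, the nuclear factor genes pnt and aop, and the inhibitor genes aos, sty and kek1. They are 10 of 13945 protein-coding genes of the annotation, and all 10 were found in it. The genes were chosen from the pathway with results of these peak lists known, so the presence of peaks at them is a description and no test is given for it. A peak belonged to a gene when its summit, the deposited position of highest enrichment, lay in the gene body or within 1000 bp of a transcription start site (TSS) of the gene. By this rule 48 peaks of the optimal IDR (irreproducible discovery rate) list, called IDR peaks below, were at the 10 genes, which is 0.629% of that list.

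The peaks come from anti-GFP ChIP-seq on whole pupae aged 24 h of a transgenic line that makes the CG9948 protein with GFP at its C terminus. There are 2 samples in 1 group, called replicates 1 and 3 after their biological replicate numbers, so no conditions are compared. The transgene was present in both, whole animals mix all tissues of the pupa, sex was not recorded, and what drives the transgene is not stated in the labels. The deposited lists hold 30000 peaks for each replicate and for the pooled reads. Read depth is unknown, and the signal of a peak is the authors' value on an unstated scale, which is read within 1 list only. The IDR peaks are exactly the strongest peaks of the pooled list, with the same signals, so an IDR signal is a pooled signal, and rank 1 is the strongest.

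Spitz, the product of spi, is made as a membrane-bound precursor that the protease Rhomboid (rho) cuts, and the released ligand binds Egfr on neighbouring cells. Drk carries the signal from the receptor towards Ras and MAP kinase, which activates the Ets protein Pointed (pnt) and removes the Ets repressor Yan (aop). Signalling turns on its own inhibitors, among them the secreted protein Argos (aos) and Sprouty (sty), and in the fly pupa the pathway patterns the eye and the wing veins.

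All 10 genes had IDR peaks, and most of these lay in introns away from the start sites. By the whole rule 26% of all protein-coding genes had an IDR peak, and 47.7% of the 3154 genes no shorter and no longer than the 10. Within 500 bp of a TSS, 5 of 10 had one (spi, drk, pnt, aop and aos), against 18% of all protein-coding genes and 25.7% of those in the same range of length. Between 500 and 1000 bp the genes rho, sty and kek1 were added, which gives 8 of 10 within 1000 bp, against 21.8% of all genes. All IDR peaks of vn and Egfr lay in introns, more than 1000 bp from their start sites. Of the 48 peaks, 8 lay within 500 bp of a TSS, 8 between 500 and 1000 bp, and 32 farther away inside a gene. The rule counts any summit in a gene body, and long genes have more room for such summits. The shares of all IDR peaks in these zones were not computed, so this split is not read as a trait of the 10 genes. Median signals of these zones were 347, 322 and 339, with ranges that overlap (158 to 1663, 215 to 747 and 156 to 1635). The map of the 10 genes shows where each peak lies.

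**Figure D1:**
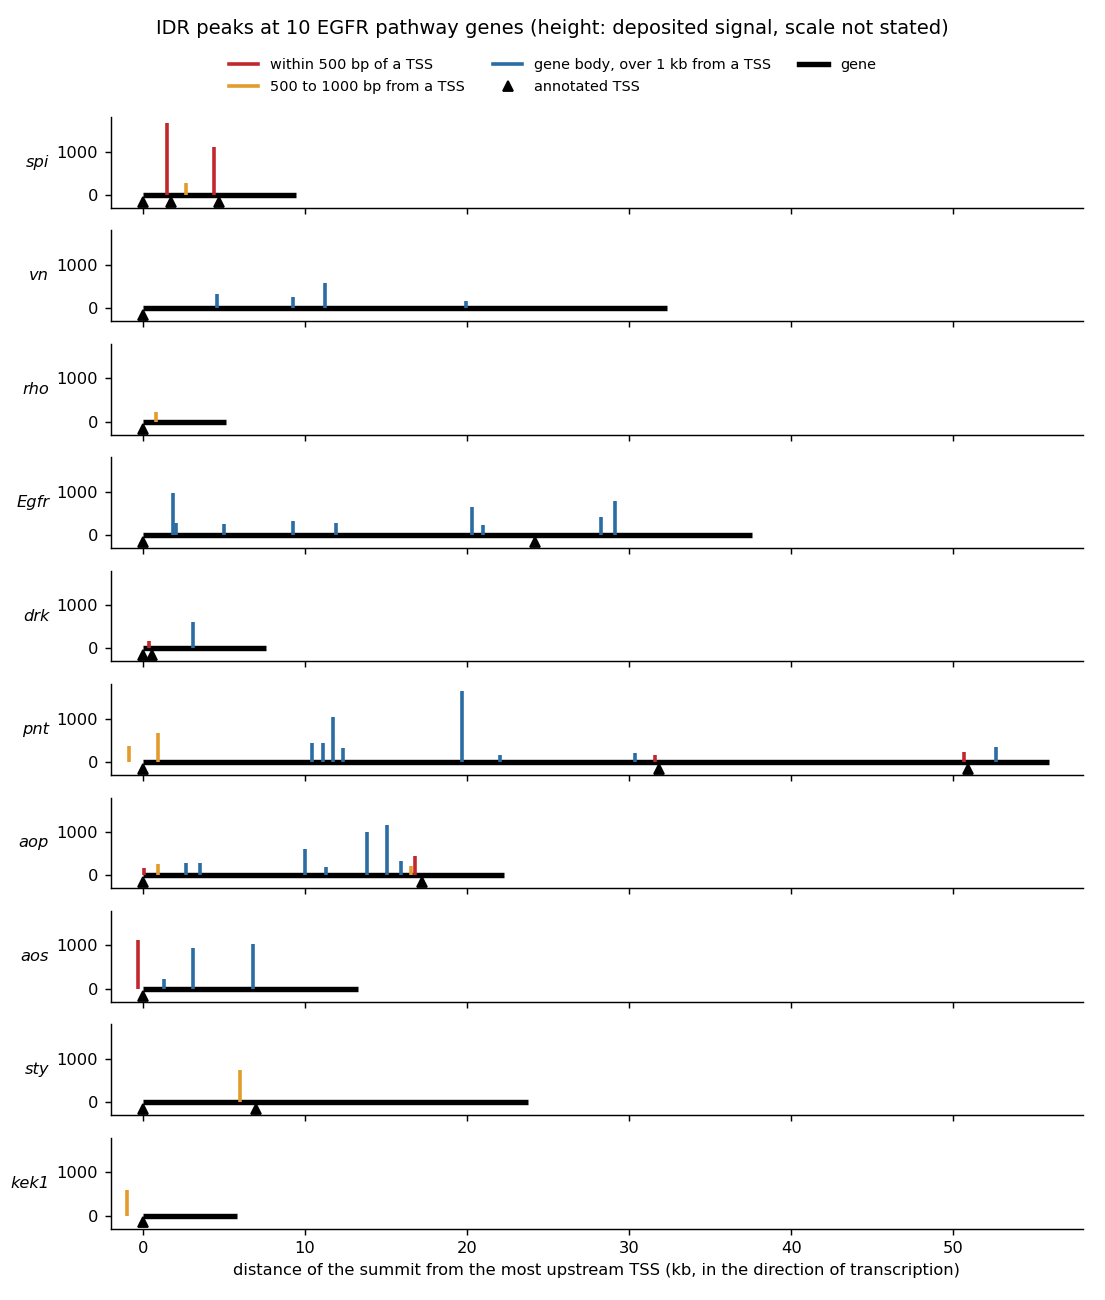
IDR peaks along each of the 10 genes, with the distance of the summit from the most upstream TSS in kb on the horizontal axis and the deposited signal as the height of each line. Colours give the distance to the nearest TSS of the gene, triangles mark TSSs and the thick line is the gene. The 12 peaks of pnt and the 9 of Egfr are spread along the genes, while rho, sty and kek1 have 1 each.

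The sequence under the strongest IDR peak of spi, vn, rho, pnt, aop, aos, sty and kek1 is shown because the stretches of A and T in it recur across the peaks. Each line gives the summit with 50 bases on either side, from the plus strand of the RefSeq release 6 genome (dm6). Runs of 8 or more bases that are all A or T are in capitals. The windows lie at chr2L:19575749-19575849 (spi), chr3L:5834366-5834466 (vn), chr3L:1464564-1464664 (rho), chr3R:23326458-23326558 (pnt), chr2L:2163618-2163718 (aop), chr3L:16483893-16483993 (aos), chr3L:3418908-3419008 (sty) and chr2L:12823712-12823812 (kek1). The longest run was 31 bases at kek1 and 23 at rho, and at aop no run reached 8.
spi: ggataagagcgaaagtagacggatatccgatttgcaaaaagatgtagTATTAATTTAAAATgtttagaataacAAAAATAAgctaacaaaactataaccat
vn: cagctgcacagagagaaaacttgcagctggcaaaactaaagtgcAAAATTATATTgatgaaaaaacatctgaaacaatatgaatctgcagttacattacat
rho: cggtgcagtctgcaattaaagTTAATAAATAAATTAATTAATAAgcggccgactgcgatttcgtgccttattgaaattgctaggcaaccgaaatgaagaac
pnt: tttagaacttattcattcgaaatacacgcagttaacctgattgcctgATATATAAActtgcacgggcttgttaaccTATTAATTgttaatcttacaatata
aop: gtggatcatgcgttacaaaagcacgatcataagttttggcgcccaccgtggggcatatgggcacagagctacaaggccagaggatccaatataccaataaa
aos: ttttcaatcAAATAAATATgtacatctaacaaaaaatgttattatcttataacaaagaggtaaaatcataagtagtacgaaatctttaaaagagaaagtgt
sty: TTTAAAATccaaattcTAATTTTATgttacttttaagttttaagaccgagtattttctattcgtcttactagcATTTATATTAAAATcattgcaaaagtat
kek1: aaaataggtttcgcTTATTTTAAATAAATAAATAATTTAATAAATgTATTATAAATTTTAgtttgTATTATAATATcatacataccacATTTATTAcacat

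The IDR peaks of both ligand genes were in introns, within 1000 bp of a start site at spi and farther away at vn. The strongest peak of all 10 genes was at spi, 212 bp upstream of the TSS of transcript spi-RG, in the first intron of the longer transcripts (chr2L:19575580-19576013). Its IDR signal was 1663, rank 182, and its signals in replicates 1 and 3 were 760 and 907. Among the 30000 peaks of each replicate its ranks were 75 and 329, so it stood high in both. Another strong spi peak lay 338 bp upstream of the TSS of spi-RB and spi-RE (signal 1109, replicates 455 and 657). The last, 907 bp downstream of the spi-RG start, was weaker at 269 (replicates 92.2 and 191). The most upstream TSS, that of spi-RA and spi-RF, had no IDR peak within 500 bp, and its nearest summit was 1516 bp downstream. It had a weaker pooled peak 131 bp upstream (signal 142), below the lowest IDR signal of 150, with matches in replicates 1 and 3 (67.0 and 68.6). So 2 of the 3 spi start sites, the internal ones, had an IDR peak within 500 bp.

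The gene vn, which codes for a secreted neuregulin-like ligand, had 4 IDR peaks, all in intron 1 of a 32.3 kb gene. They lay 4.58, 9.26, 11.2 and 19.9 kb downstream of its only TSS, with signals of 321, 270, 575 and 161. The strongest had signals of 194 and 387 in replicates 1 and 3. The weakest, at 19.9 kb, ranked 12188 in replicate 1 and 7049 in replicate 3, and its nearest TSS was that of mad2, at 12648 bp. No IDR summit lay within 1000 bp of the vn TSS.

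The protease gene rho had 1 weak IDR peak, 803 bp downstream of its TSS in intron 1, with a signal of 215 and rank 5531. Its signals in replicates 1 and 3 were 60.6 and 149, at ranks 6030 and 5564. A pooled peak 16 bp upstream of the rho TSS (signal 116) was also below the lowest IDR signal and had a match in replicate 3 only (83.1).

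The receptor gene Egfr, on chromosome arm 2R, had 9 IDR peaks and none within 1000 bp of its 2 start sites. All 9 were in the first intron of each transcript that spans them. The strongest lay 1.83 kb downstream of the TSS of Egfr-RA (2R:21524246, signal 983, rank 694), with signals of 152 in replicate 1 and 838 in replicate 3. This peak was ranked 2334 in replicate 1 and 414 in replicate 3, so it stood higher in the list of replicate 3. A peak with its summit 201 bp away overlapped it and shared the same replicate 1 peak. The next strongest lay 4.90 kb downstream of the TSS of Egfr-RB (signal 784, replicates 243 and 529) and 3.92 kb upstream of it (signal 657, replicates 167 and 497). The other 6 had signals from 228 to 414, and the one at 228 had no match in replicate 1. For 3 Egfr peaks the nearest TSS was that of lncRNA:CR44725, at 515 to 4742 bp, and for 2 it was that of CG30283, at 2147 and 2833 bp. Both of these genes start inside Egfr, and the gene that such a peak belongs to cannot be told from its position.

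The adaptor gene drk, also on 2R, codes for the fly homologue of Grb2. Its stronger peak (signal 603, replicates 252 and 341) lay in a drk intron, 2.53 kb downstream of a drk TSS. The TSS of mars was nearer, at 862 bp, and the gene that this peak belongs to cannot be told from its position. The peak between both drk start sites was weak, with a signal of 172. Its summit lay 169 bp upstream of the TSS of drk-RD and 379 bp downstream of the other TSS. Its signal was 22.2 in replicate 1, at rank 18187, and 143 in replicate 3, at rank 5804.

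The Ets genes pnt and aop, an activator and a repressor that bind the same kind of site, had the most peaks. Of the 48 peaks, 12 were at pnt and 11 at aop. In all, 54 protein-coding genes had 12 or more IDR peaks and 71 had 11 or more. Long genes have more room for peaks, so each gene was also set beside other genes of 0.5 to 2 times its length. Of 1399 such genes 0.72% had as many IDR peaks as aop, of 646 genes 5.57% had as many as pnt, and of 937 genes 5.12% had as many as Egfr. For aos, spi and drk the shares were 7.32%, 7.62% and 13.4%, and for vn, rho, kek1 and sty 23.4%, 31.3%, 33.4% and 58.8%. So the 1 peak of sty was a common count at its length, and the 11 of aop a rare one.

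**Figure D2:**
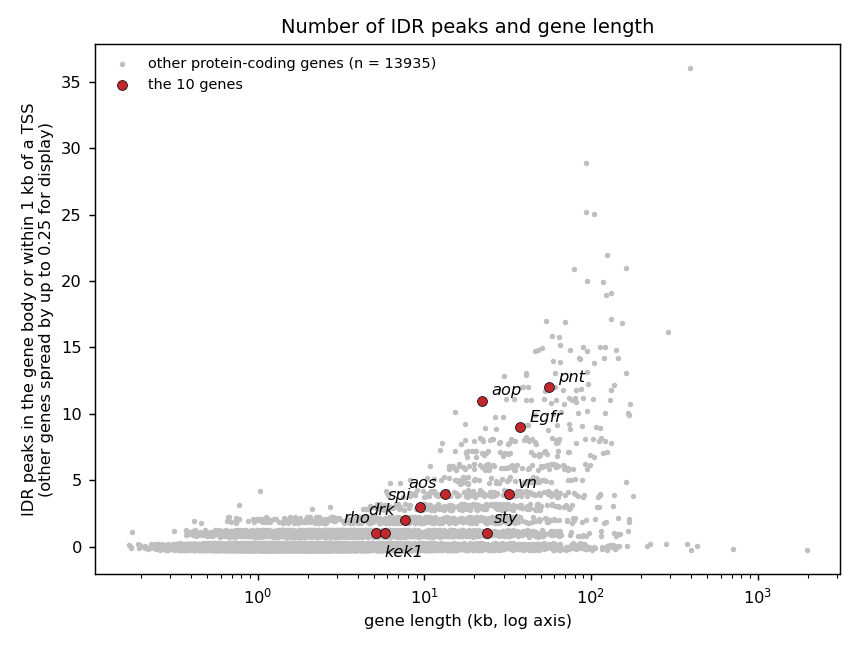
Number of IDR peaks by the rule (vertical axis) against gene length in kb on a log axis, for the 10 genes (red, named) and all other protein-coding genes (grey, jittered for display). The gene aop, at 22.3 kb with 11 peaks, lies near the upper edge of genes of its length, and sty, at 23.8 kb, has 1 peak, the median of genes of 0.5 to 2 times its length.

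At pnt the strongest peaks lay in intron 3, between its first and its next TSS. The strongest was 12.2 kb upstream of the TSS of pnt-RD (chr3R:23326333-23326662, signal 1635, rank 196), with signals of 525 and 1099 in replicates 1 and 3. It ranked 234 and 189 in the replicate lists. A group of 4 peaks lay 10450 to 12345 bp downstream of the first TSS, with 598 to 663 bp between neighbouring summits and signals of 446, 435, 1028 and 319. The one at 1028 had the largest ratio between its replicate ranks among the 45 of 48 peaks found in both lists. Its signal was 114 at rank 3238 in replicate 1 and 929 at rank 315 in replicate 3. The last of the 4 had its summit 19 bp from the TSS of lncRNA:CR46090, a noncoding gene inside the intron. For the 4 and for the next 2 peaks this was the nearest TSS. Near the 3 pnt start sites no peak was as strong as those at 1635 and 1028. The first TSS had one 915 bp downstream (signal 662, replicates 149 and 523) and one 856 bp upstream (375, replicates 107 and 263). The other two had peaks 234 and 288 bp upstream with signals of 163 and 239. Neither of those had a match in replicate 1, and their replicate 3 signals were 144 and 233. The remaining 3 pnt peaks had signals of 156, 194 and 352.

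At aop the peaks crowded upstream of its internal start site. Starting from the TSS of aop-RA and aop-RD, 5 IDR peaks lay 454, 663, 1291, 2141 and 3429 bp upstream, with signals of 455, 216, 321, 1174 and 1011. The peak at 2141 bp (chr2L:2163496-2163859, rank 473) had signals of 432 and 748 in replicates 1 and 3, and the one at 3429 bp had 332 and 687. Farther upstream were peaks at 5.93 kb (192) and 7.22 kb (612). The most upstream TSS had 1 peak 80 bp downstream, the only one of the 48 in an exon, a 5′ UTR. It was weak at 158 and ranked 17034 in replicate 1 (signal 23.0) and 6334 in replicate 3 (130). Another 3 peaks followed within 3.55 kb in intron 1, with signals of 268 to 291.

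Among the inhibitor genes, aos had 3 strong peaks and sty and kek1 had 1 peak each. The gene aos codes for Argos, which binds Spitz and keeps it from the receptor. Its promoter peak, 293 bp upstream of its TSS (chr3L:16483680-16484169), had a signal of 1126, rank 516, and 371 and 758 in replicates 1 and 3. Peaks 3.08 and 6.81 kb into intron 1 were nearly as high, at 946 (replicates 320 and 629) and 1036 (379 and 646). These 3 ranked between 512 and 775 in both replicate lists. The fourth aos peak, 1.27 kb into the intron, had a signal of 217 and the values 54.2 and 56.1, at ranks 6657 and 13928.

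The Sprouty gene sty had an IDR peak in intron 1, 997 bp upstream of the TSS of sty-RB (signal 747, rank 1179). Its signals were 262 and 488 in replicates 1 and 3, at ranks 1097 and 1248. The kek1 gene codes for a transmembrane protein with leucine-rich repeats that binds and inhibits the receptor. Its peak lay 975 bp upstream of the TSS (chr2L:12823582-12823951, signal 595, rank 1648), with signals of 153 and 456 in replicates 1 and 3.

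The 1000 bp limit decided whether kek1 had an IDR peak. In replicate 1 the summit of its peak was 898 bp from the TSS, and in replicate 3 it was 1001 bp away, just outside. The sty peak, at 997 bp, also lies in the gene body and does not depend on the limit. Just outside the rule, aop had an IDR summit 1513 bp upstream of its first TSS (signal 897) and another at 4188 bp (882), and aos had one at 1251 bp (320). Beyond the end of sty lay 4 IDR summits at 1758, 2444, 3103 and 4926 bp, with signals of 764, 157, 1057 and 1020. The nearest TSS to these 4 was that of lncRNA:CR45737. At the inner limit of 500 bp, the aop peak 454 bp upstream was inside and that at 663 bp outside.

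Within 500 bp the summits lay mostly upstream of the nearest start site of the gene, but mostly still inside the gene. Of the 8 within 500 bp, 7 were upstream and 1 downstream. Of the 8 between 500 and 1000 bp, 4 were upstream and 4 downstream. Only 3 of the 48 peaks lay upstream of the whole gene, at aos, pnt and kek1, and the others upstream of a TSS were in introns. The drk summit counted as upstream was also 379 bp downstream of the other drk TSS. The same shares over all IDR peaks were not computed. Of the 18 annotated start sites of the 10 genes, 9 had an IDR summit within 500 bp, against 16.5% of the 19607 TSSs of protein-coding genes. A peak can serve more than 1 start site, as at drk. Of the 45 summits inside the gene bodies 1 was in an exon and 0 in coding sequence, while exons make up 21.4% of these bodies and coding sequence 9.24%. Over all protein-coding genes 433 of 4651 summits in gene bodies (9.31%) were in exons, which make up 37.3% of the bodies. Of the 44 intron peaks, 26 were in intron 1 of every transcript that spans them, a share not computed over all IDR peaks. Gene bodies of the 10 genes held 211 IDR summits per Mb, against 51.7 over all protein-coding genes and 61.9 in those of the same range of length.

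Most of these peaks were in both replicate lists. A match had to share 50% or more of the shorter peak, and 45 of the 48 IDR peaks (93.8%) had one in each list, against 91.1% of all IDR peaks. The other 3, one at Egfr and a pair at pnt, had a match in replicate 3 only. Across the 45, Spearman's rho between the replicate 1 and replicate 3 signals was 0.862, and it was 0.815 across all 6958 shared IDR peaks. These points are peaks of the same 2 libraries, some of them in 1 gene, and 2 of them share 1 peak of replicate 1. The median summit of replicate 1 was 24 bp from the IDR summit and that of replicate 3 was 5 bp from it. Over all shared IDR peaks these medians were 17 and 6 bp. The ranks in the 2 lists were more than 2 times apart for 8 of the 45 (17.8%), against 13.1% of all. Of these 8, the pnt, Egfr, drk and aop peaks ranked higher in replicate 3 and the spi and aos peaks higher in replicate 1. Within 500 bp of a TSS, the weak peaks of drk, pnt and aop (aop at 80 bp) thus ranked higher in replicate 3 or had a match there only. Those of spi and aos were strong in both. The pnt peak 234 bp upstream and the Egfr peak with a signal of 228 did each overlap a replicate 1 peak, by less than the 50% that a match needs.

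**Figure D3:**
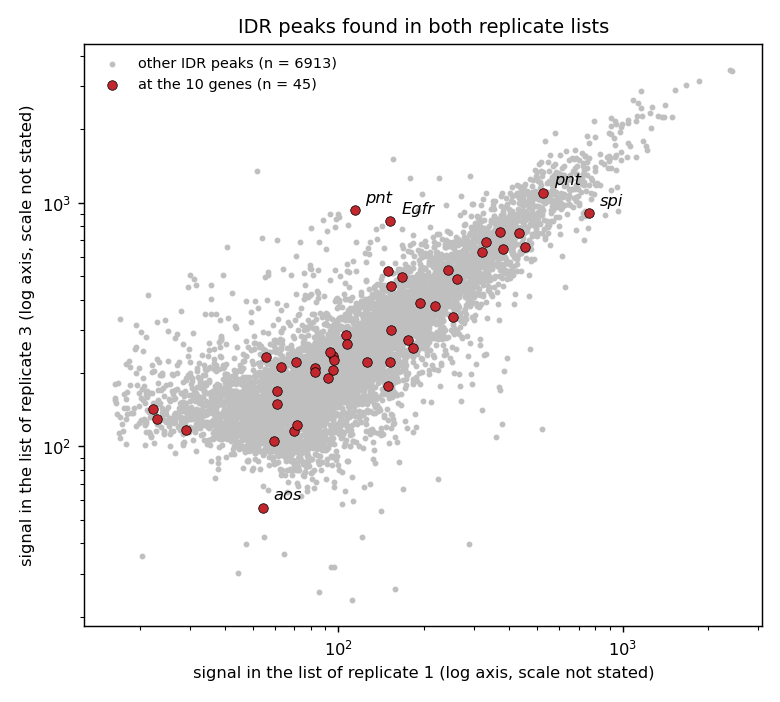
Signal in the list of replicate 1 (horizontal) and replicate 3 (vertical), both on log axes and on an unstated scale, for IDR peaks found in both lists. The 45 peaks at the 10 genes are red and the others grey. One pnt peak (114 and 929) and one Egfr peak (152 and 838) lie above the cloud, and one aos peak (54.2 and 56.1) below it.

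Below the IDR level the pooled list added weak peaks at every gene. It held 158 peaks at the 10 genes, of which 51 matched an IDR peak by the same 50% rule and 107 did not. Some of the 107 overlapped an IDR peak by less than that. None of the 107 reached the lowest IDR signal of 150, and the highest was 142. Of the 158, 79 (50%) were found in both replicate lists, 60 in replicate 3 only, 11 in replicate 1 only and 8 in neither. Over all pooled peaks 45.5% were found in both. The gene sty had 16 pooled peaks and 1 IDR peak, and Egfr had 34 and 9. All 10 genes had a pooled summit within 500 bp of a TSS, against 41.8% of all protein-coding genes, and by the whole rule the shares were 10 of 10 and 50%. In replicate 3 the 10 genes also all had one within 500 bp (45.8% of all genes), while in replicate 1 only spi, drk, pnt, aop and aos did (31.2%). By the whole rule all 10 had a peak in replicate 1 (49.6% of all genes) and in replicate 3 (52.6%). Since each of these lists holds 30000 peaks, the lists reach down to different strengths, and a count in one is not comparable with that in another.

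**Figure D4:**
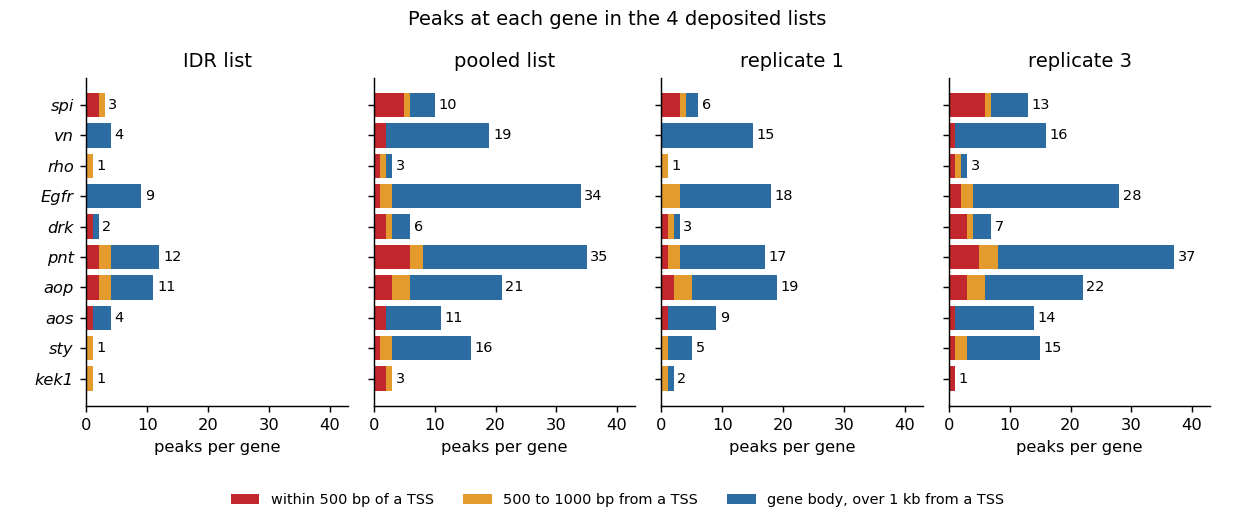
Number of peaks at each of the 10 genes in the IDR, pooled, replicate 1 and replicate 3 lists, divided by distance to the nearest TSS of the gene. In each of the 4 lists sty, rho and kek1 have fewer peaks than pnt, aop and Egfr, and the kek1 count of 1 in replicate 3 leaves out the peak whose summit is 1001 bp from the TSS.

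The summits lay in DNA richer in A and T than its surroundings at most of the 48 peaks. The median A + T content within 50 bp of the summit was 67.8%, against 53.7% in windows centred 200 bp away, and the median difference was 12.4 percentage points (15.8 over all IDR peaks). The summit was higher in 42 of 48 peaks (87.5%), against 91.2% of all IDR peaks. The genome mean is 57.8%. The kek1 peak had the highest A + T content (85.1%) and the largest difference (32.7 points), and rho had a difference of 0.990 points with a run of 23 bases of A and T. The 6 peaks without a higher summit were at pnt (2), aop (2), Egfr (1) and aos (1). The lowest was the pnt peak 288 bp upstream of the TSS of pnt-RC and pnt-RE, with 40.6% A + T and a difference of -17.8 points. The strongest aop peak, at 51.5%, was also among them. A run of 8 or more bases of A and T was found in 39 of the 48 windows (81.3%) and in 85.2% of all IDR windows.

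**Figure D5:**
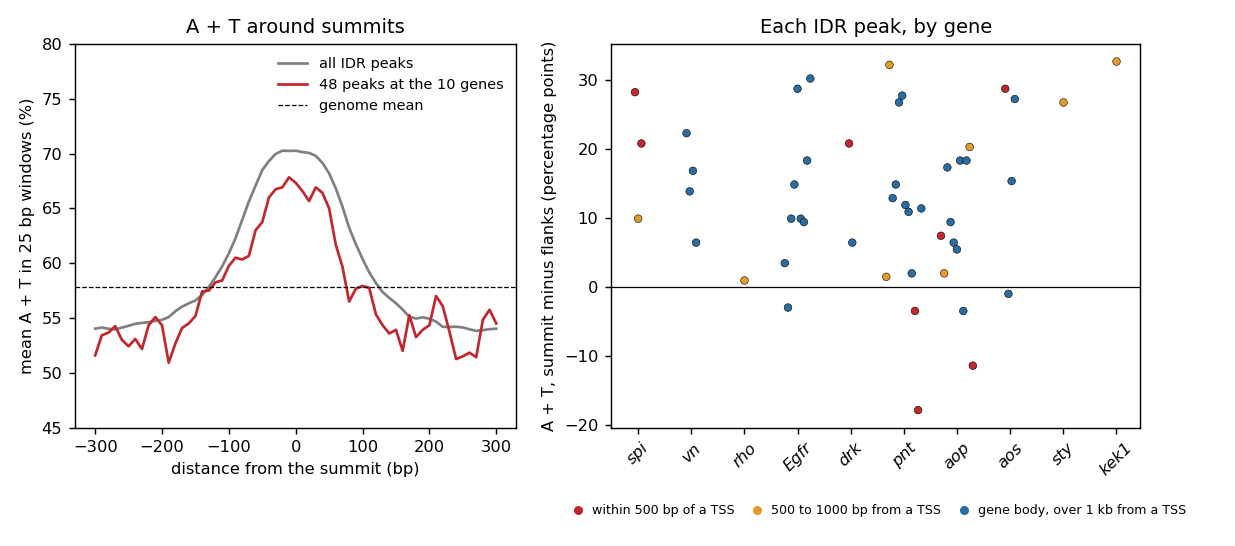
Left, mean A + T content in 25 bp windows against the distance from the summit for the 48 peaks (red) and all IDR peaks (grey), with the genome mean dashed. Right, the difference between summit and flanks in percentage points for each of the 48 peaks, by gene and coloured by distance to a TSS, from -17.8 at pnt to 32.7 at kek1.

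Of 8 motifs searched, most were found at few of the 48 summits. GGAA, the core that Ets proteins such as Pointed and Yan bind, was within 50 bp of the summit on either strand in 20 of 48 (41.7%) and in 48% of all IDR windows of the same length. The longer CCGGAA, which contains it, was in 2 of 48 (4.17%), 1 at aop and 1 at pnt, against 1.11%. CACTG was in 8 (16.7% against 13.6%), of which 4 were at aop, and GAGAG in 8 (16.7% against 7.82%). CGATA was in 6 (12.5% against 10.4%) and CACGTG in 1 (2.08% against 0.367%). TATCGATA, which contains CGATA, and CAGGTAG were in 0 of 48, against 0.314% and 0.367%. In windows centred 200 bp to the left on the plus strand, GGAA was in 26 of 48 (54.2% against 52.8% of all IDR peaks), CACTG in 11 (22.9% against 20.6%) and GAGAG in 14 (29.2% against 17.4%). All 3 were more common there than at the summit, at the 48 peaks and over all IDR peaks alike. CGATA was in 0 of the 48 windows there (against 11.3%), as were CCGGAA (1.70%) and CACGTG (1.44%). These matches are letters in a window and do not show binding by any factor.

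Other genes of the pathway were read by the same rule. Of 39 such genes in 4 lists, 11 (28.2%) had an IDR peak within 500 bp of a TSS, 16 (41.0%) within 1000 bp and 20 (51.3%) by the whole rule. Their median length was 8.18 kb, against 17.8 kb for the 10. Among ligand genes and genes for ligand processing, 1 of 7 had a peak within 500 bp, the Keren ligand gene Krn (signal 679, 151 bp upstream). The genes grk, for the ligand Gurken, and rho-4 had no IDR peak. Among the genes from the receptor to MAP kinase 4 of 15 had one within 500 bp. The strongest within 1000 bp were at the adaptor gene Shc (1887, 128 bp upstream), RasGAP1 (1078, 679 bp upstream) and the kinase gene Raf (1067, 852 bp downstream, among 15 IDR peaks), while Cbl and cnk had none. Among nuclear factors 5 of 12 had one within 500 bp, led by the corepressor gene gro (1316, 139 bp upstream), Eip74EF (692) and the repressor gene cic (611, among 15 IDR peaks), and Ets21C and Ets65A had none. Of the 5 other Kekkon genes only kek5 had one (231, 202 bp upstream, among 7 IDR peaks). The genes kek2 and kek3, at 44.9 and 31.3 kb, had none.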

How the data were processed

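The labels give both samples 1 strain, stage and age, so they form 1 group. Per the deposited readme texts, the 4 peak lists are narrowPeak files on dm6. Each replicate list was derived from that replicate's reads with a control, the pooled list from both replicates with it, and the IDR list from those 3 lists. The sources used here do not name the aligner, the caller, their versions or thresholds. Controls were not analysed here. The deposited signal of each peak was used as the authors give it. The deposited −log10 q-value has 1 value over the IDR list and was not used. Positions rest on the deposited summit offset, counted in bases from the peak's start, set to the peak's last base where it equalled the width (3 IDR, 7 pooled, 2 replicate 1 and 10 replicate 3 peaks).

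Gene models came from Ensembl release 115 (BDGP6.54), with transposable element genes left out, with sequence read from RefSeq release 6. Coordinates are dm6 and 1-based. All IDs of the 10 genes matched, and phl was matched to Raf through RefSeq synonyms. A + T content and motifs were read within 50 bp of the summit, with flanks centred 200 bp away. The 10 genes, the other lists and the motifs were chosen with earlier results of these data known. Named are the 10 genes, the gene of a nearer TSS, and in each other list up to 3 genes with the strongest peak within 1000 bp and up to 2, first in the alphabet, without an IDR peak. With 1 group nothing was tested, and the share of all protein-coding genes stands in its place. Placement and overlap were checked on planted peaks. Python 3.11.15, NumPy 2.4.6, pandas 2.3.3, SciPy 1.17.1 and matplotlib 3.10.9 were used.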

Additional observations from a re-analysis of the deposited data

How the results depend on the processing

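No paired analysis was possible because there is 1 group and no test. Of 37 alternatives for the main counts and values, 28 stayed within the limit set for them and 9 did not. The limit was 1.5 times for counts and the spread for A + T. For the share found in both replicate lists it was the 95% Wilson confidence interval of that share, taken over peaks. For A + T the spread was the standard deviation between peaks, a wide limit, as the 48 ran from -17.8 to 32.7 points. Some counts could not fall: the pooled list holds every IDR peak, so 10 of 10 by the whole rule had to stay. The number that stayed is therefore not a measure of robustness. To leave out a replicate, the IDR list was replaced by the strongest peaks of the other replicate, as many as the IDR list holds, so both the replicate and the cut in strength changed. The count of 5 of 10 genes with an IDR summit within 500 bp of a TSS then ranged from 3 to 5, with 3 (spi, aop and aos) without replicate 3, while the whole list of replicate 1 gave 5. It was 3 in the stronger 50% of the IDR peaks, 3 with the most upstream TSS only (drk, aop and aos) and 10 with all pooled peaks. The 48 peaks became 28 in that stronger 50% and 158 in the pooled list, and the replacing lists held 45 to 48 peaks at the 10 genes. The 8 peaks within 500 bp became 4 within 250 bp and 16 within 1000 bp. Any overlap raised the 93.8% found in both replicate lists to 97.9%. Matching only the strongest peaks of each replicate, as many as the IDR list holds, lowered it to 85.4%. By the whole rule 9 genes had a peak among the strongest of replicate 3 (kek1 lost, its summit there being 1001 bp from the TSS) and 9 in that stronger 50% (rho lost). The A + T difference was 9.33 to 14.7 points in 5 alternatives. Windows of 100 bp on either side held GGAA, CACTG and GAGAG in 77.1%, 43.8% and 35.4% of the 48 peaks, against 73.8%, 41.7% and 19.2% of all IDR peaks. Read depth is unknown, so how far it limits weak peaks such as that at rho was not tested.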

Other observations

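Other receptor tyrosine kinase genes, which signal through the same Ras cascade, were read by the same rule. Of 18 such ligand, receptor and adaptor genes, 4 (22.2%) had an IDR peak within 500 bp of a TSS, 6 (33.3%) within 1000 bp and 13 (72.2%) by the whole rule, with a median length of 14.8 kb. Within 1000 bp the strongest were at tsl, a gene of the torso pathway (signal 1120, 935 bp downstream), the fibroblast growth factor receptor gene htl (679, 445 bp upstream) and stumps, the gene for its adaptor (380, 320 bp upstream), while Alk and boss had no IDR peak.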
